A study of Mus musculus with 3 samples.

Results

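A population of thymic T cells was examined after haploidentical bone marrow transplantation (haplo-BMT), with and without graft-versus-host disease (GvHD). Members were chosen by their measured transcripts, as the cells with a transcript of at least 3 of 8 marker genes (Sostdc1, Nrn1, Penk, Tnfsf8, Lag3, Igfbp7, Bace2, Gpm6b) and none of Foxp3, Zbtb16 or Siglech. They numbered 799 of the 11527 cells kept in both transplant libraries, 107 of 5970 in BM only and 692 of 5557 in BM + Spl. Recipients in both were F1 (C57BL/6 x BALB/c) mice that were lethally irradiated and received T cell-depleted C57BL/6 bone marrow. BM only recipients received nothing more and stood for haplo-BMT without GvHD. BM + Spl recipients were also given C57BL/6 splenic cells and stood for haplo-BMT with GvHD. Recipients were 16 weeks old, 9 weeks after BMT. Untreated C57BL/6 mice of 7 weeks gave the other library, which differed from the others in strain, age and treatment. Its matrix also came from another software version and listed 31053 genes against 32285.

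CD8-labelled thymocytes were first removed with beads, and the TCRβ+ cells that bound the CD1d tetramer and lacked CD24 and NK1.1 were then sorted and sequenced as 1 droplet library per condition. The paper lists several mice for each condition, and the cells carry no label of the mouse they came from. How far any share below rests on few mice was therefore not tested. The deposited matrices held 35041153 unique molecular identifier (UMI) counts in BM only, 43383960 in BM + Spl and 60600408 in C57BL/6. Since each condition had 1 library, condition and library cannot be told apart, no test between conditions was possible, and every 95% interval below covers counting error only. The 2 transplant libraries shared 43 cell barcodes, 0 of them among members.

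Invariant natural killer T (iNKT) cells recognise lipids on CD1d with a near-invariant receptor α chain, Trav11 joined to Traj18, and few V-beta segments, and their development depends on the transcription factor PLZF, encoded by Zbtb16. Foxp3 encodes the master factor of regulatory T cells. Lag3 encodes an inhibitory receptor that T cells display after antigen contact, and GvHD arises when T cells of the graft react to tissues of the host.

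The marker genes that chose the members have roles outside the classical T cell programs. Penk (chr4:4133531-4138819, minus strand, GRCm38) encodes the precursor of the enkephalin opioid peptides, Sostdc1 (chr12:36314139-36318452, plus strand) a secreted antagonist of BMP and Wnt signals, and Nrn1 (chr13:36725361-36735131, minus strand) neuritin, a membrane-anchored protein known from neurons. Tnfsf8 encodes CD30 ligand, Igfbp7 an insulin-like growth factor binding protein, Bace2 an aspartyl protease and Gpm6b a proteolipid family membrane protein. Their values follow from the rule and are given as a description. Tnfsf8 was seen in 81.3% of BM only members and 84.5% of BM + Spl members, Lag3 in 64.5% and 81.8%, Penk in 62.6% and 70.8%, Gpm6b in 50.5% and 55.8%, Igfbp7 in 41.1% and 54.0%, Bace2 in 29.9% and 32.9%, Nrn1 in 54.2% and 29.9%, and Sostdc1 in 22.4% and 15.5%. Penk was thus carried by most members, and Sostdc1 by a minority. In CPM, the gene's UMIs per 1000000 UMIs of the group, Penk reached 1981 in BM only members and 3561 in BM + Spl members, against 142 and 350.4 in the other kept cells with a Cd3e UMI. Sostdc1 reached 220 and 213 CPM, against 1.86 and 7.23.

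Members did not share 1 fixed set of markers. They used 67 marker combinations in BM only and 123 in BM + Spl, and the commonest in BM + Spl (Penk, Tnfsf8, Lag3, Igfbp7 and Gpm6b) covered 46 cells, or 6.65%. The chosen genes were not all confined to members: Penk was also found in 28.0% of Foxp3+ T cells in BM only and 47.1% in BM + Spl. In BM + Spl, 0 of 46 B cells (Cd79a and Cd79b, no Cd3e) held a Penk UMI, which allows up to 7.71%, and Penk was found in 1.79% of 336 Siglech+ cells without Cd3e. Lag3 was found in 68.5% of those Siglech+ cells, so Lag3 by itself did not mark members. Cd3e, a chain of the T cell receptor complex, was detected in 105 of 107 and 681 of 692 members.

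Cells just inside and just outside the threshold were compared, with Penk as a gene that the marker count itself uses. In BM + Spl, Penk was at 675.5 CPM in the 253 cells with 2 markers, 1786 CPM in the 213 cells with 3 markers and 4384 CPM in those with 4 or more. In BM only the same values were 956.5 CPM in 69 cells, 1304 CPM in 46 cells and 2496 CPM. The share of cells with Cd4 but no Cd8 transcript in BM + Spl was 49.4%, 56.3% and 67.4% in the same order. In BM only it was 29.0%, 30.4% and 21.3%, and that of cells with Cd8 but no Cd4 was 34.8%, 50% and 65.6%. The members are a range set by a count of markers.

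**Figure D1:**
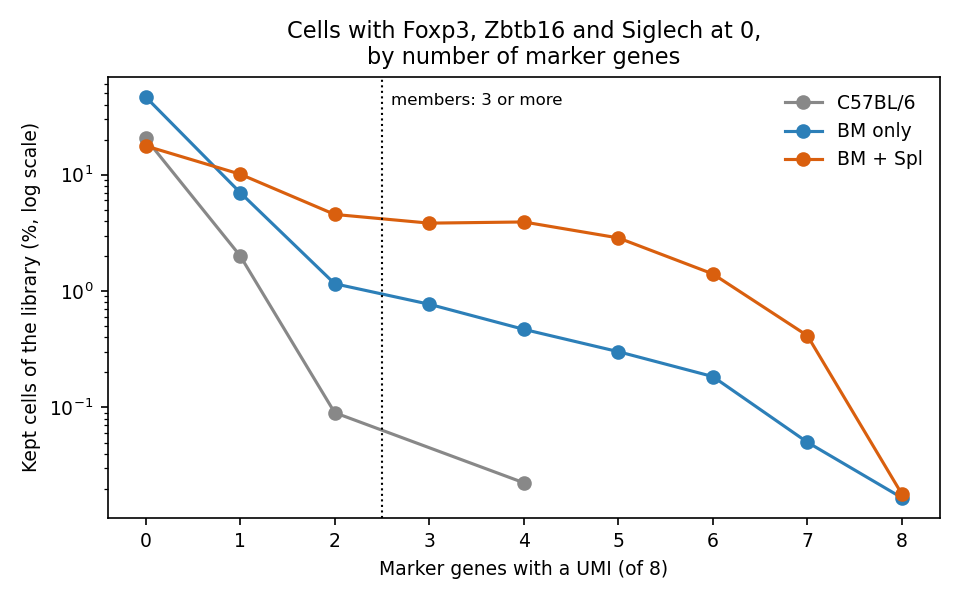
Share of each library's kept cells (%, log scale) against the number of the 8 marker genes detected, among cells with Foxp3, Zbtb16 and Siglech at 0, with a dotted line where membership starts. From 3 markers on, the BM + Spl library lay above BM only up to 7 markers, and C57BL/6 had 1 member.

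The population took a larger share of the BM + Spl library. Members made up 1.79% of kept BM only cells (1.47 to 2.16%, exact Clopper-Pearson interval) and 12.5% of kept BM + Spl cells (11.6 to 13.3%), a ratio of 6.95 (5.69 to 8.49). The C57BL/6 library held 1 member among 4434 kept cells (0.0226%, up to 0.126%). BM + Spl cells were sequenced more deeply, with a median of 6495 UMIs per barcode against 4740 in BM only. With every cell thinned to 2700 UMIs, which left out 955 BM only and 563 BM + Spl cells, the shares were 1.16% and 10.3%, and their ratio 8.92 (6.82 to 11.7). Members were shallower than the other Cd3e+ cells in each library, at a median of 4247 against 4798 UMIs in BM only and 4994 against 6996 in BM + Spl. Before Foxp3, Zbtb16 and Siglech were applied, 161 cells in BM only and 854 in BM + Spl reached 3 markers, and 45 and 121 of them held Foxp3.

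Members of the libraries differed in coreceptor transcripts. CD4 and CD8 are the coreceptors for MHC class II and class I. In BM only, 63 of 107 members (58.9%) had Cd8a or Cd8b1 but no Cd4, and 27 (25.2%) had Cd4 alone. In BM + Spl the order was the opposite, with 443 of 692 (64.0%) Cd4 only and 118 (17.1%) Cd8 only. Outside members Cd4 only cells were also more frequent in BM + Spl, at 24.9% in BM only and 45.2% in BM + Spl of the other Cd3e+ cells, and 15.5% and 39.7% of the other T cells with none of the 3 exclusion genes. Among the other Cd3e+ cells, 5.23% and 8.12% were Cd8 only. Among the other T cells with none of the 3 exclusion genes the shares were 5.94% and 15.4% (13.7 to 17.2%), so in BM + Spl the interval overlapped that of members (14.3 to 20.1%), and Cd8a differed from those cells by 0.45 on the log2 scale. CD8-labelled cells had been removed before sorting. How far that removal set these shares was not tested. As a share of all kept cells, Cd4 only members were 17.6-fold (11.97 to 25.95) higher in BM + Spl, and Cd8 only members 2.01-fold (1.49 to 2.73). The base of both ratios is all kept cells and not the cells of the same class, and Cd4 only and Cd8 only cells outside members were also more frequent in BM + Spl.

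Marker use differed between the coreceptor classes, by other genes in each library. In BM + Spl, Sostdc1 was found in 19.2% of Cd4 only and 2.54% of Cd8 only members, and Igfbp7 in 60.9% and 26.3%. Nrn1 had the opposite order, with 23.0% of Cd4 only and 62.7% of Cd8 only members. Penk stood at 4223 CPM in Cd4 only and 1417 CPM in Cd8 only members. In BM only, with 27 Cd4 only and 63 Cd8 only members, the shares were 25.9% and 23.8% for Sostdc1, 40.7% and 42.9% for Igfbp7 and 51.9% and 54% for Nrn1, and Penk stood the other way at 1198 and 1902 CPM. Lag3 was found in 44.4% of Cd4 only and 82.5% of Cd8 only BM only members, and in 80.8% and 86.4% of those of BM + Spl. These are marker genes, so their levels depend on the rule in both classes.

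Members of BM + Spl were rich in Xist, the RNA of the inactive X chromosome of female cells. Of the 436 BM + Spl members with either an Xist UMI or a UMI of 4 Y-linked genes (Eif2s3y, Ddx3y, Kdm5d, Uty) but not both, 360 (82.6%, 78.7 to 86.0%) had Xist and 76 the Y-linked genes. The same share was 20.9% in the other Cd3e+ cells of that library, 16.5% in Foxp3+ and 12.6% in Zbtb16+ T cells, and 38.1% in the other T cells with none of the 3 exclusion genes. In BM only it was 24.1% (13.9 to 37.2%) in members and 29.4% in the other Cd3e+ cells. The BM + Spl members thus stood apart from the other T cells of their library and from the BM only members. Xist was detected at 44.9 CPM in BM only and 47.0 CPM in BM + Spl, against 1261 CPM in C57BL/6, so the lack of an Xist UMI does not show a male cell. Cells of both kinds occurred in both transplant libraries, and the sex of donors and recipients is not given in the sources used here. What this share says of the origin of the members was not tested.

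The higher share of members in BM + Spl was greatest in the cells with Xist. Among kept cells with Xist and no Y-linked UMI, members made up 14 of 847 (1.65%) in BM only and 360 of 936 (38.5%) in BM + Spl, a ratio of 23.3 (13.8 to 39.4). Among cells with Y-linked UMIs and no Xist, they made up 44 of 2220 (1.98%) and 76 of 2461 (3.09%), a ratio of 1.56 (1.08 to 2.25). Among cells with neither, they made up 49 of 2868 (1.71%) and 250 of 2109 (11.9%), a ratio of 6.94 (5.13 to 9.37). Within BM + Spl, 92.2% of Cd4 only members with a call had Xist, against 44.9% of Cd8 only members. Members with Xist held Cd4 in 76.4% and Cd8a in 8.61% of cells, and those with Y-linked UMIs in 35.5% and 52.6%. Ikzf2, which encodes Helios, was found in 21.7% of the former and 60.5% of the latter. Ccl1, a chemokine gene, was found in 32.8% and 5.26%.

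**Figure D2:**
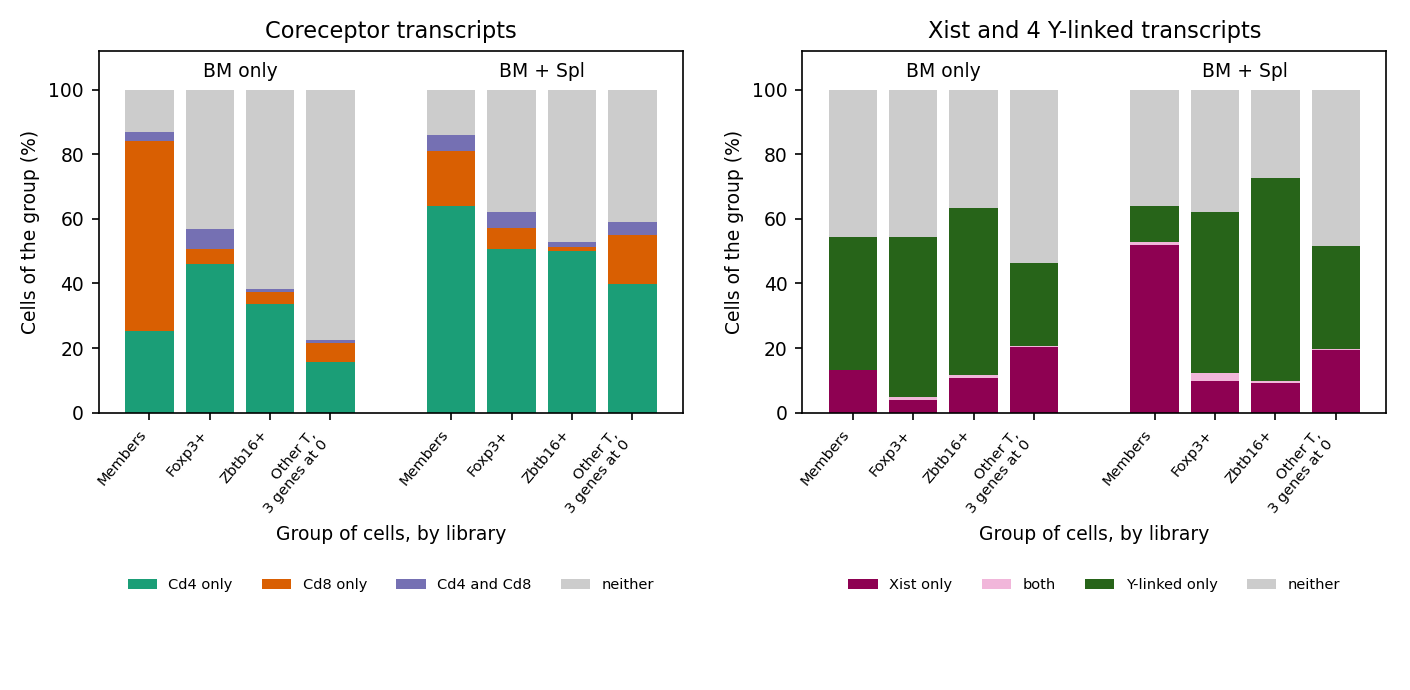
Stacked bars of the share of cells (%) with Cd4, Cd8, both or neither (left) and with Xist, Y-linked transcripts, both or neither (right), for members and 3 other groups of T cells in each library. The BM only members were mostly Cd8 only (58.9%), and the BM + Spl members mostly Cd4 only (64.0%) and rich in Xist.

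V-beta use was then compared, since the cells were sorted with a CD1d tetramer. The 6 segments counted here as iNKT segments were Trbv1, Trbv12-2, Trbv13-1, Trbv13-2, Trbv13-3 and Trbv29. A cell was assigned a segment that held at least 80% of its V-beta UMIs. UMIs of Trbv12-2 were added to those of Trbv13-2 before assignment, so every share or pairing given for Trbv13-2 covers both segments. The last 60 bases of the 5 V-beta segments most used by BM only members, which include the 3 most used in BM + Spl, of the V-alpha segments of recurrent pairings and of Trav11 for contrast are shown 5′ to 3′ from the mm10 reference (GENCODE annotation, plus strand). Capitals mark the conserved cysteine codon and what follows, where the CDR3 loop that contacts antigen begins.
Trbv5, chr6:41062744-41062803: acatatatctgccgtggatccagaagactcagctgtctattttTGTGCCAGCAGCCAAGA
Trbv13-2, chr6:41121773-41121832: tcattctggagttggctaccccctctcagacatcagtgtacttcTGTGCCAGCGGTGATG
Trbv1, chr6:40891826-40891885: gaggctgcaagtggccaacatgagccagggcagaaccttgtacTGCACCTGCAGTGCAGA
Trbv16, chr6:41152171-41152230: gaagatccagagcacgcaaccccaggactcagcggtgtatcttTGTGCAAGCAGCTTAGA
Trbv3, chr6:41048769-41048828: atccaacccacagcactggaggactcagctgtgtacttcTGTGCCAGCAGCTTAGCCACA
Trav7-6, chr14:53717232-53717291: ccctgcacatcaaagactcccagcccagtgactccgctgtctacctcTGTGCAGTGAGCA
Trav9-1, chr14:53488508-53488567: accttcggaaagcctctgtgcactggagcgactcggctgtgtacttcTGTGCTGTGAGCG
Trav11, chr14:53519800-53519859: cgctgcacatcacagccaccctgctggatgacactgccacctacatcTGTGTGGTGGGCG

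The share of members that used an iNKT segment was below that of Zbtb16+ T cells in both libraries. Of the members with an assigned V-beta, 23 of 86 (26.7%, 17.8 to 37.4%) in BM only and 233 of 612 (38.1%, 34.2 to 42.1%) in BM + Spl used one. The share was 93.8% and 94.4% in Zbtb16+ T cells, and 80.7% and 64.7% in all other Cd3e+ cells. It was 29.7% and 29.1% in Foxp3+ T cells, whose values lie inside the members' interval in BM only and below it in BM + Spl. The T cells with none of the 3 exclusion genes outside the population differed between libraries, at 83.0% in BM only and 43.4% (40.7 to 46.1%) in BM + Spl, where their interval overlapped that of members. The rule used no receptor gene, but it removed Zbtb16+ cells, so part of the contrast with Zbtb16+ and all other Cd3e+ cells was built in.

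Most but not all single segments differed between members and Zbtb16+ T cells. Trbv5, shown above, was the commonest in BM only members (20 of 86, 23.3%) and the second in BM + Spl members (69 of 612, 11.3%), against 0.850% and 0.789% of Zbtb16+ T cells. Trbv16 took 12.8% and 4.74% of members, and Trbv3 11.6% and 5.72%. Trbv13-2, the main iNKT segment, took 10.5% and 14.2% of members but 44.6% and 42.9% of Zbtb16+ T cells. Trbv29 was found in 1 BM only and 5 BM + Spl members (1.16% and 0.817%), against 20.5% and 23.1% of Zbtb16+ T cells. Foxp3+ T cells lay near members for Trbv5, at 18.0% and 14.4%. In the other T cells with none of the 3 exclusion genes, BM only gave 40.8% for Trbv13-2, 4.34% for Trbv5, 1.61% for Trbv3 and 0.683% for Trbv16. In BM + Spl these cells lay closer to members, at 15.6%, 8.26%, 5.86% and 3.68%, while Trbv29 stood at 5.94%. Of the other segments with at least 2% of members, the iNKT segment Trbv1 took 8.14% and 10.3% of members against 11.3% and 10.3% of Zbtb16+ T cells, and Trbv13-1 5.81% and 9.15% against 11.1% and 10.7%, all inside the members' intervals. Trbv19 took 4.65% and 6.21% of members, Trbv14 3.49% and 5.72%, and Trbv12-1 4.65% and 2.12%. Trbv2, Trbv20 and Trbv31 in BM only and Trbv4, Trbv13-3, Trbv15, Trbv17, Trbv20, Trbv26 and Trbv31 in BM + Spl each took between 2.33% and 4.74%. In BM + Spl the iNKT share was 37.3% in Cd4 only and 41.5% in Cd8 only members.

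**Figure D3:**
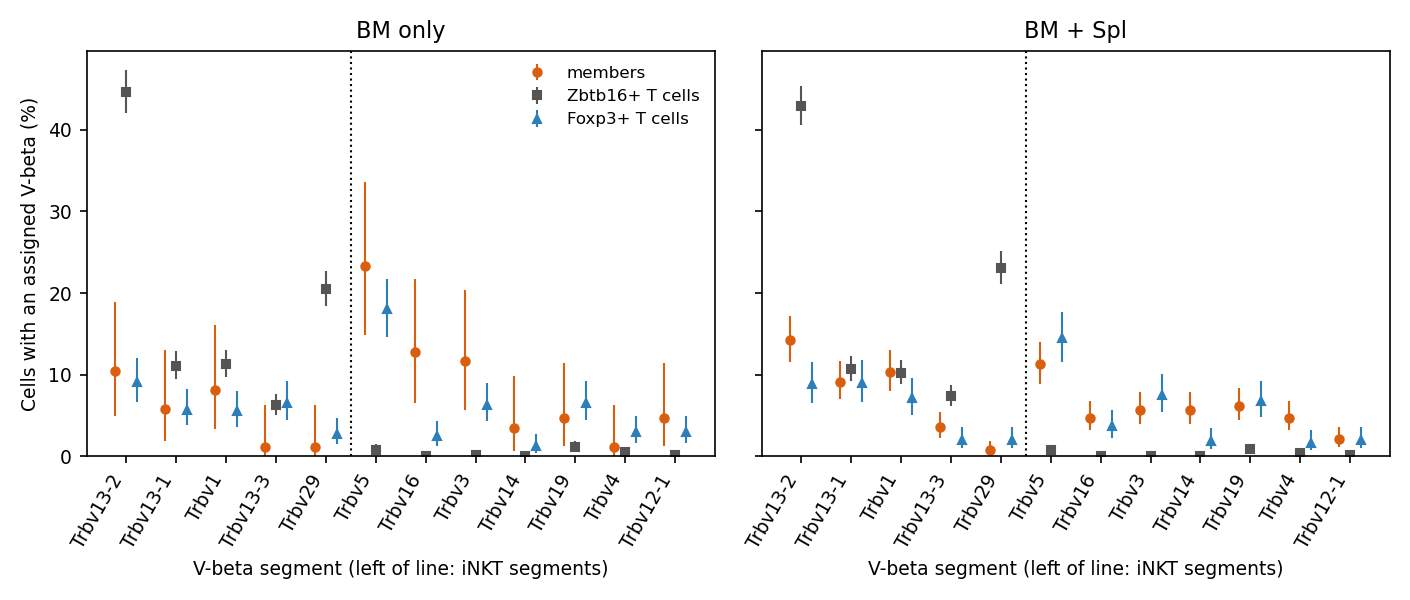
Share of cells with an assigned V-beta (%) that used each segment, with exact 95% intervals for counting error, for members, Zbtb16+ and Foxp3+ T cells, and iNKT segments left of the dotted line. Members spread over segments such as Trbv5 (23.3% in BM only, 11.3% in BM + Spl) that Zbtb16+ cells almost lacked, and held little Trbv29.

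Transcripts of the invariant α chain were nearly lacking in members. A Trav11 UMI was found in 0 of 107 and 0 of 692 members, which allows up to 3.39% and 0.532%. It was found in only 1.84% and 1.15% of Zbtb16+ T cells, so these libraries rarely detected Trav11 even there. A Traj18 UMI was found in 0 of 107 BM only and 1 of 692 BM + Spl members (0.145%, up to 0.802%), against 3.63% (2.79 to 4.64%) and 6.91% (5.82 to 8.15%) of Zbtb16+ T cells. In the other T cells with none of the 3 exclusion genes it was found in 3.58% and 1.24%, and in Foxp3+ T cells in 0.486% and 0.867%. V-alpha families were assigned by the same 80% rule and single V-alpha segments at 50%, since the reads of near-identical family members may be split between them. Some pairings recurred in BM + Spl, and the commonest were singled out after their counts were seen. Of the 366 BM + Spl members with both chains assigned, 47 (12.8%, 9.59 to 16.7%) paired Trbv13-2 with the Trav7 family, 44 of them with Trav7-6, and 29 (7.92%, 5.37 to 11.2%) paired Trbv1 with the Trav9 family, 26 of them with Trav9-1. Among the other Cd3e+ cells of that library the pairings made up 2.85% and 1.29% of 1789, with Trav7-6 in 7 cells of the first and Trav9-1 in 20 of the 23 cells of the second. Among the other T cells with none of the 3 exclusion genes they made up 1.25% and 2.22% of 720, and 15 of the 16 cells of the second used Trav9-1, so neither pairing was confined to members. Neither was seen in the 34 BM only members with both chains, which allows up to 10.3%.

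Cells of the recurrent pairings are given apart, and whether those of 1 pairing descend from 1 clone was not tested. The Trbv13-2 and Trav7 cells had Lag3 in 45 of 47 cells, Igfbp7 in 42, Penk in 40 and Sostdc1 in 0. They were Cd4 only in 36 of 47 cells, and 27 had Xist against 1 with Y-linked UMIs. The Trbv1 and Trav9 cells had Lag3 in 27 of 29 cells, Igfbp7 in 21, Penk in 14 and Sostdc1 in 2. Without both pairings, 81.3% of the BM + Spl members with a call had Xist. Without them 29.3% of BM + Spl members used an iNKT segment, a share that falls by construction because both pairings carry one.

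The members' transcripts were next set against all other Cd3e+ cells of the same library. Genes were described where the smaller group was due at least 10 UMIs, without the rule's genes and receptor segments, and a gene was counted where its CPM ratio passed 2-fold. UMIs of a gene can come from few cells, so the counting intervals understate the error. In BM only, 192 of 6088 genes were higher in members (3.15%) and 361 lower (5.93%). In BM + Spl, where many more UMIs brought more genes into view, 799 of 10555 were higher (7.57%) and 934 lower (8.85%). Of 6083 genes described in both, 118 were higher in both (1.94%) and 149 lower in both (2.45%). The median log2 ratio over all genes was -0.016 in BM only and -9.25e-05 in BM + Spl.

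Genes higher in members of both libraries included ligands that act on other thymic cells. Ccl1, which attracts cells with the receptor CCR8, was at 293 CPM in BM only members and 1279 in BM + Spl members, against 18.9 and 136 in the other Cd3e+ cells. Its log2 ratios were 3.95 (3.69 to 4.21) and 3.24 (3.18 to 3.29). In the other T cells with none of the 3 exclusion genes it was at 1.43 CPM in BM only but 566 CPM in BM + Spl, and over those cells the log2 ratio in BM + Spl was 1.18 (1.12 to 1.23). It came from 15 of 107 and 187 of 692 members, and 50 of the 157 UMIs in BM only came from 1 cell. In BM + Spl, Ccl1 was at 1678 CPM in Cd4 only and 38.0 CPM in Cd8 only members, so most of it came from the Cd4 only cells. Among Cd8 only cells alone, members held less Ccl1 than the other cells, with a log2 ratio of -1.22.

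Tnfsf11, Cd200 and Eea1 were found in larger shares of members. Tnfsf11 encodes RANKL, a signal for the growth of medullary thymic epithelium, and was at 278 and 360 CPM in members against 30.8 and 52.7 in the others, with a UMI in 49.5% and 68.9% of members. Its log2 ratios were 3.17 (2.91 to 3.42) and 2.77 (2.67 to 2.87). Cd200, the ligand of an inhibitory receptor, was at 226 and 219 CPM against 18.2 and 27.4, in 39.3% and 48.0% of members, with log2 ratios of 3.63 (3.34 to 3.92) and 3.0 (2.87 to 3.13). Eea1, which encodes a tether of early endosomes, was at 259 and 287 CPM against 26.1 and 31.3, in 57% and 62.9% of members, with log2 ratios of 3.31 (3.05 to 3.58) and 3.20 (3.08 to 3.32). Between the members of BM + Spl and BM only these 3 genes differed by 0.37, -0.05 and 0.15 on the log2 scale, less than 2-fold. By coreceptor class Eea1 differed by 0.99 in Cd4 only and -1.19 in Cd8 only members and Tnfsf11 by 0.21 and -0.79, and in BM + Spl Tnfsf11 stood at 435 CPM in Cd4 only and 134 CPM in Cd8 only members. Against the other T cells with none of the 3 exclusion genes the BM + Spl ratios were 1.74 for Tnfsf11, 2.99 for Cd200 and 2.82 for Eea1.

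Several other genes of the shared set encode regulators of signals and transcription. Against the other T cells with none of the 3 exclusion genes, the log2 ratios of the 12 named genes ran from 2.20 (Nr4a2) to 7.68 (Ccl1) in BM only and from 0.45 (Cd8a) to 2.99 (Cd200) in BM + Spl. Against all other Cd3e+ cells, the log2 ratios in BM only and BM + Spl were 2.52 and 2.57 for Nr4a2, an orphan nuclear receptor, 2.87 and 2.28 for Dusp4, a phosphatase of MAP kinases, and 2.74 and 2.49 for Rgs16, a brake on G protein signals. They were 2.61 and 2.36 for Serpinb6a, a protease inhibitor, 2.75 and 2.34 for Trps1, a GATA-type repressor, 2.39 and 2.44 for Marcksl1, an actin-binding protein, and 2.55 and 2.15 for Cd83, a surface protein of activated lymphocytes. Cd8a was far higher in BM only, at 4.92, than in BM + Spl, at 2.16, and the share of Cd8 only members differed in the same direction. Bhlhe40, a transcription factor of activated T cells, was found in 82.2% and 92.5% of members, at 714.5 and 839 CPM, with log2 ratios of 2.06 and 2.52. Over Foxp3+ T cells some of these genes differed less, with 0.48 and 0.21 for Dusp4, 0.088 and 0.085 for Cd83 and 0.26 and 0.96 for Rgs16. Others stood apart there too, with 2.57 and 3.15 for Tnfsf11, 2.12 and 2.16 for Cd200, 2.0 and 2.04 for Eea1 and 1.85 and 1.77 for Nr4a2.

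Genes lower in members of both libraries included receptors and effectors of thymic T cells. Igfbp4 had 0 UMIs in BM only members against 260 CPM in the others, at least 46.5-fold lower with 3 UMIs over the group as the floor. In BM + Spl it stood at 4.82 against 388 CPM, a log2 ratio of -6.33 (-7.04 to -5.70). Ccr9, the receptor for the thymic chemokine CCL25, also had 0 UMIs in BM only members against 47.6 CPM, at least 8.51-fold lower, and stood at 2.17 against 98.6 CPM in BM + Spl. Gzmb, which encodes the cytotoxic protease granzyme B, was at 14.9 against 179 CPM in BM only and 4.58 against 39.1 CPM in BM + Spl. Lmo4, a LIM-domain regulator of transcription, had log2 ratios of -3.17 and -2.84, and Gm4258 -3.60 and -5.80. Rbpms had 1 UMI in BM only members, at -4.72 (-10.03 to -2.24), and -4.16 in BM + Spl. Qpct also had 1 UMI, at -4.92 (-10.23 to -2.44), and -2.94 in BM + Spl, and the histone gene Hist1h2ao 2 UMIs, at -4.07 (-7.11 to -2.21), and -3.02 in BM + Spl. Over Foxp3+ T cells, the BM + Spl ratios were -0.08 for Qpct, -0.50 for Rbpms and -0.54 for Lmo4, within 2-fold. The other lower genes named here ran from -1.94 (Ccr9) to -4.86 (Gzmb). In BM only, Lmo4 had -0.61 there, but Gzmb -2.84 and Hist1h2ao -4.47. Against the other T cells with none of the 3 exclusion genes, BM + Spl ratios ran from -1.51 (Lmo4) to -5.46 (Igfbp4). Zbtb16+ T cells, which the rule removed, held Igfbp4 at 514 and 574 CPM.

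**Figure D4:**
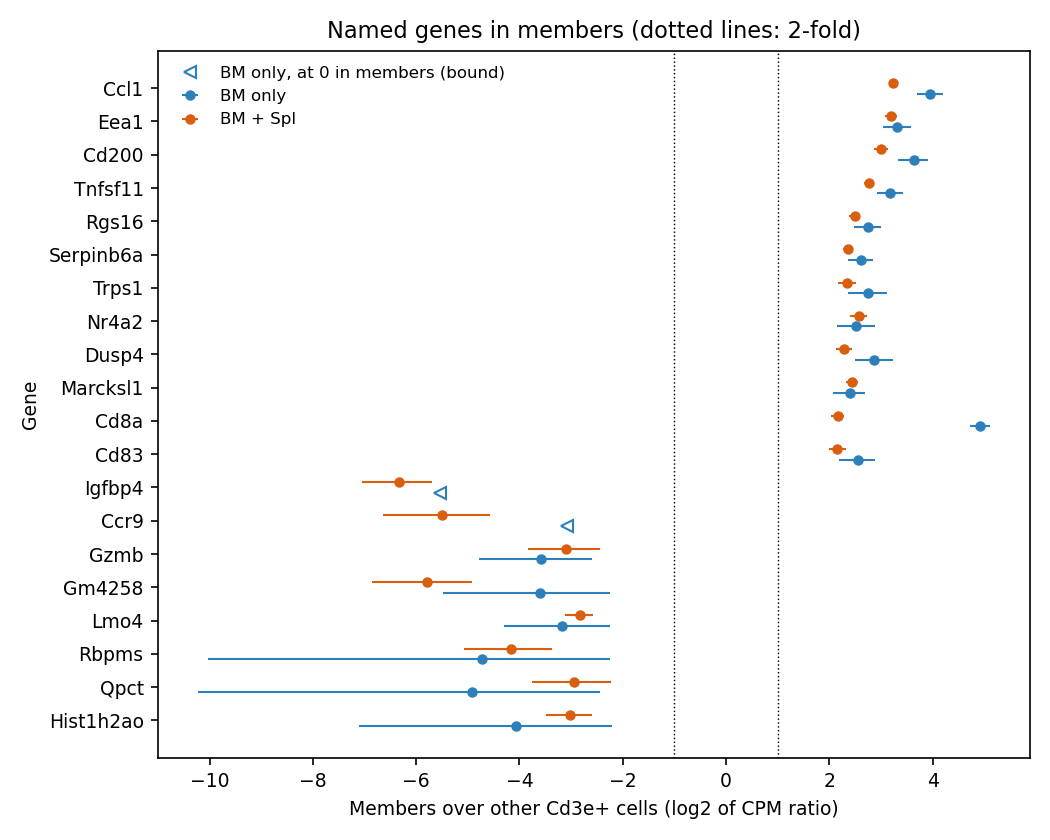
CPM ratio of members over other Cd3e+ cells (log2) with 95% counting intervals for the 20 named genes in each library, with open triangles as bounds for genes at 0 in BM only members and dotted lines at 2-fold. The 12 upper genes lay above 2-fold in both libraries, from 2.39 (Marcksl1) to 4.92 (Cd8a) in BM only and from 2.15 (Cd83) to 3.24 (Ccl1) in BM + Spl, and the 8 lower genes lay below it.

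Lists of known genes were then described by how many of their members passed 2-fold and by their median log2 ratio, beside all-gene medians near 0. Unless another group is named, the ratios are over all other Cd3e+ cells. Of these, 32.3% in BM only and 45.3% in BM + Spl held a Zbtb16 UMI, which the rule kept out of members. Among inhibitory receptors and Tox, which mark T cells after sustained antigen contact, 6 of 9 described genes were higher in BM only (median 1.13) and 6 of 13 in BM + Spl (median 0.80), with 0 lower in either. Pdcd1, which encodes PD-1, had log2 ratios of 1.26 and 1.43, Tigit 1.92 and 1.45, and Ctla4 1.86 and 1.35. Over Foxp3+ T cells Pdcd1 had 1.55 and 1.94, but Tigit -0.71 and -0.70 and Ctla4 -0.82 and -0.78. Tox, a nuclear factor of exhausted T cells, had 1.13 and 0.30, past 2-fold in BM only alone. In the list of T cell receptor signal response, 3 of 13 genes were higher in BM only (median 0.35) and 7 of 15 in BM + Spl (median 0.79). In the anergy list these counts were 1 of 10 (0.20) and 5 of 14 (0.39). Cd5, a gauge of receptor signal strength, stood at -0.06 and -0.09.

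Costimulatory genes were higher in part. Of these, 3 of 11 were higher in BM only and 4 of 12 in BM + Spl, with medians of 0.52 and 0.65. Tnfrsf4, which encodes OX40, had log2 ratios of 1.71 and 1.14 and stood at 709 and 766 CPM in members, below the 1449 and 1589 CPM of Foxp3+ T cells. Cd82, a tetraspanin, had 1.41 and 1.48, while Tnfrsf9, which encodes 4-1BB, had 0.52 and 0.19.

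The cytokine list differed between libraries. In BM + Spl, 7 of 11 described cytokine genes were higher in members and 2 lower (median 2.04), against 1 of 5 higher and 2 lower in BM only (median 0.23). Ifng, the main type 1 cytokine, was at 226 CPM in BM only members and 231 CPM in BM + Spl members, and in the other Cd3e+ cells at 192 and 48.0 CPM. The log2 ratios of 0.23 and 2.27 therefore differed through the other cells, not through the members. Lta, which encodes lymphotoxin α, was at 74.6 CPM in BM only members and 178 CPM in BM + Spl members. Il2 UMIs were concentrated, with 33 of 38 in 1 BM only member and 227 of 519 in 1 BM + Spl member. Xcl1, a chemokine for cross-presenting dendritic cells, was at 655 and 433 CPM in members, and within BM + Spl at 303 CPM in Cd4 only and 880 CPM in Cd8 only members.

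Programs of iNKT subsets were divided. Among NKT2 genes, 5 of 11 were lower in members and 2 higher in BM only (median -0.83), and 7 of 12 were lower and 1 higher in BM + Spl (median -1.65). The higher genes were Pdcd1 in both libraries and Tox in BM only. Members were chosen without Zbtb16 UMIs, so some contrast in iNKT genes was built into the comparison. Izumo1r, which encodes folate receptor 4, had log2 ratios of -0.83 and -2.74. NKT1 genes were mixed in BM only, with 2 of 13 higher and 5 lower (median -0.22), and in BM + Spl 7 of 13 were higher and 3 lower (median 1.03). Nkg7, a protein of cytotoxic granules, had 0.13 and 1.51, while its level in members was lower in BM + Spl (748 and 535 CPM, log2 -0.48). NKT17 genes had medians of -0.71 and 1.07, with 1 of 7 higher and 3 lower in BM only and 6 of 11 higher and 1 lower in BM + Spl. Tmem176b and Tmem176a, paralogous membrane proteins, had -0.60 and -0.43 in BM only and 1.49 and 1.71 in BM + Spl.

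Proliferation genes were mostly lower in BM + Spl members than in all other Cd3e+ cells, which include the Zbtb16+ cells that the rule removed. Among DNA replication and mitosis genes, 3 of 11 were lower in BM only (median -0.56) and 12 of 14 in BM + Spl (median -1.43), with 0 higher in either. Mcm5, a subunit of the replicative helicase, had -0.27 and -1.46, and Tyms, the enzyme that makes thymidylate, -0.18 and -1.39. Immature thymocyte genes were lower in 3 of 6 and 5 of 8 cases, with 1 higher each time and medians of -0.76 and -1.19. Satb1, a chromatin organiser of thymocytes, stood at 61.6 and 74.5 CPM in members against 294 and 288 CPM in the others. Genes of egress and naive T cells had a median of -0.55 in both libraries, with 1 of 12 higher in each and 5 and 4 lower. Ccr7, a lymph node homing receptor, stood the other way at 465 and 376 CPM against 106 and 204 CPM, with log2 ratios of 2.13 and 0.88.

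The remaining lists gave smaller or mixed counts, except for the CD8 genes. Interferon response genes had medians of -0.22 and -0.80, with 1 of 8 higher and 2 lower in BM only and 1 of 11 higher and 2 lower in BM + Spl. The higher gene was Ifi27l2a in both, at 3351 and 7196 CPM and in 96.3% and 96.2% of members. Chemokines and their receptors were higher in 3 of 11 and 6 of 13 cases and lower in 3 and 4. Follicular helper genes were higher in 1 of 7 and 1 of 9, and lower in 3 and 2. Among CD8 genes 2 of 3 and 4 of 4 were higher, with Cd8b1 at 4.74 and 1.65. Crtam, a receptor of activated cytotoxic cells, had 2.53 in BM + Spl. Among CD4 genes 1 of 5 was higher in each, and Cd4 itself had 0.65 and 1.62.

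Genes that respond to tissue dissociation moved with some of these results. In BM + Spl, 5 of 10 were higher in members and 0 lower (median 0.85), among them Fos at 1.09, and in BM only 0 were higher and 2 lower (median -0.28). Fos, Junb and Dusp1 also respond to receptor signals, and the part of dissociation in the BM + Spl ratios was not tested. Between members of the 2 libraries the median of this list was 0.02, with 0 of 9 past 2-fold either way.

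**Figure D5:**
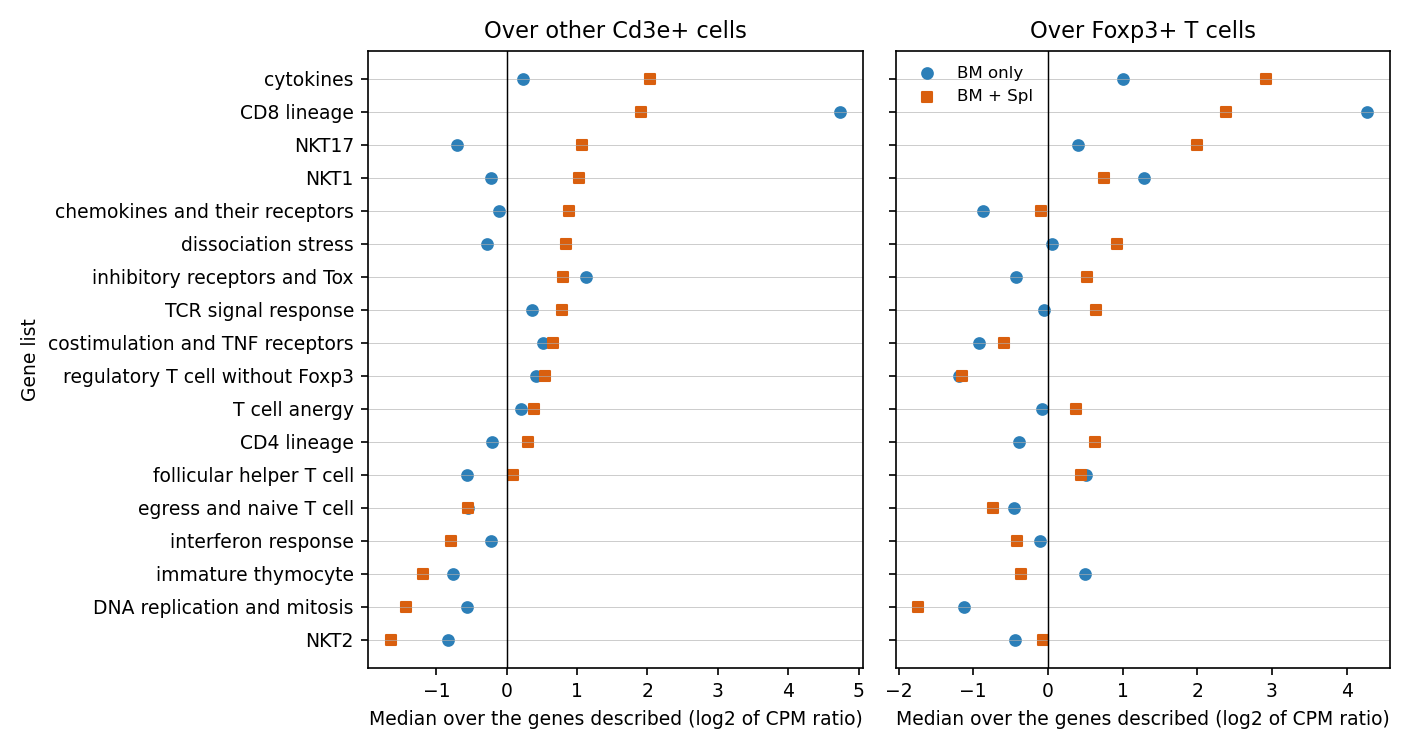
Median CPM ratio (log2) over the described genes of each list for members over other Cd3e+ cells (left) and over Foxp3+ T cells (right), with circles for BM only and squares for BM + Spl. Inhibitory receptors lay above 0 on the left in both libraries (1.13 and 0.80), and regulatory T cell genes below 0 on the right in both (-1.19 and -1.15).

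Regulatory T cell genes were divided over other T cells and mostly lower than in Foxp3+ T cells. Over other Cd3e+ cells, 4 of 10 regulatory T cell genes other than Foxp3 were higher and 2 lower in BM only (median 0.42), and 4 of 14 higher and 3 lower in BM + Spl (median 0.54). Nrp1, a semaphorin receptor of thymic regulatory T cells, had log2 ratios of 2.49 and 2.0. Against Foxp3+ T cells, 9 of 13 of these genes were lower in members of BM only (median -1.19) and 8 of 14 in BM + Spl (median -1.15), with 1 higher in each. Il2ra, which encodes the interleukin 2 receptor chain CD25 and was singled out after its values were seen, had -2.84 and -2.06 against Foxp3+ T cells and -0.32 and 0.19 over other Cd3e+ cells. Across all genes, members were higher than Foxp3+ T cells in 162 of 6281 genes in BM only (2.58%) and 724 of 10570 in BM + Spl (6.85%), and lower in 408 (6.5%) and 763 (7.22%), with all-gene medians of -0.084 and 0.004. Ccl1 was at 151 and 48.5 CPM in Foxp3+ T cells, and at 0.14 and 0.435 CPM in Zbtb16+ T cells. Members were chosen without Foxp3 UMIs and Foxp3+ T cells by them, so some contrast in genes that go with Foxp3 was built into this comparison.

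Members of BM + Spl were last set against members of BM only. Here 144 of 6038 genes were higher in BM + Spl (2.38%) and 46 lower (0.762%), with a median log2 ratio of 0.005. The genes with the highest ratios were carried by a part of the BM + Spl members. Ifitm1, an interferon-induced membrane protein, had 2 UMIs in BM only and 870 in 61 BM + Spl members, at a log2 of 5.81 (3.96 to 8.86), and the other Cd3e+ cells differed by 1.74. Within BM + Spl it was at 209.8 CPM in members and 222 CPM in the other T cells with none of the 3 exclusion genes, a log2 ratio of -0.080 (-0.20 to 0.038). Serpine2, a secreted protease inhibitor, had 1 and 254 UMIs, the latter in 73 members, at 5.04 (2.55 to 10.35), and the other Cd3e+ cells differed by -0.065. Lgals7, which encodes galectin-7, had 10 and 811 UMIs, the latter in 149 members, at 3.39 (2.5 to 4.46), and the other Cd3e+ cells also differed, by 2.63 (2.36 to 2.92). Il13, a type 2 cytokine, had 0 and 161 UMIs, with 54 of the latter in 1 cell. With 3 UMIs over the group as the floor, its level was at least 6.94-fold higher in BM + Spl. For Il13 the other Cd3e+ cells differed by 0.43 on the log2 scale. Pxdc1 had 1 and 174 UMIs, the latter in 60 members, at 4.49 (1.99 to 9.80), and the other Cd3e+ cells stood the other way, at -2.07.

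Rnaset2b, a ribonuclease T2 gene, was the exception in breadth. It was found in 9.35% of BM only and 57.4% of BM + Spl members, at a log2 of 2.94, while the other Cd3e+ cells differed by 0.05. Its presence went with Xist, and in BM + Spl it was found in 70.3% of members with Xist and in 7.89% of those with Y-linked UMIs, and in 76.6% and 6.41% of the other Cd3e+ cells. In the other Cd3e+ cells of BM only these shares were 61.1% and 5.19%. Among members with Xist it was found in 4 of 14 in BM only (28.6%, 8.39 to 58.1%) and 253 of 360 in BM + Spl (70.3%, 65.3 to 75.0%), at 76.0 and 254 CPM. Both the share of Xist cells and the level within them were thus higher in BM + Spl members. Genes named before also went with Xist in BM + Spl members. Lgals7 was found in 99 of 360 with Xist and 3 of 76 with Y-linked UMIs, Serpine2 in 47 and 1, and Ifitm1 in 39 and 1. In BM only they were found in 1, 0 and 0 of 14 members with Xist, and in 2, 1 and 1 of 44 with Y-linked UMIs. Among members with Xist their levels were 10.9, 0 and 0 CPM in BM only and 259, 82.2 and 288 CPM in BM + Spl. They thus differed between libraries within Xist members too.

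A pair of genes inside the T cell receptor β locus was also higher in BM + Spl members. 1810009J06Rik (chr6:40964754-40968435) had 1 and 392 UMIs, at 5.66 (3.18 to 10.97), and Gm2663 (chr6:40995830-40999479) 9 and 566 UMIs, at 3.02. All 9 Gm2663 UMIs of BM only members came from 1 cell, so that ratio rests on it. The other Cd3e+ cells differed by 1.91 and 4.73, from only 0.284 and 0.126 CPM in BM only. Within BM + Spl the genes stood at 94.5 and 136 CPM in members, against 1.06 and 3.36 CPM in the other Cd3e+ cells. They stood at 3.54 and 18.4 CPM in Foxp3+ T cells, and at 0.126 and 0.504 CPM in the other T cells with none of the 3 exclusion genes. Both lie between Trbv1 and Trbv2. 1810009J06Rik was found in 38 BM + Spl members, of which 1 was among the 63 with Trbv1 and 34 among the 549 with another V-beta.

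The genes lower in BM + Spl members were fewer and partly shared with the whole library. Cfap77 had a log2 ratio of -4.92, Gm10260 -3.28 and Ly6c2 -1.51, and the other Cd3e+ cells differed by -4.09, -2.76 and -1.82. Cd8a and Cd8b1 had -1.57 and -1.63, and Eif2s3y, a Y-linked gene, -1.99, in step with the class shares given above. Within Cd8 only members Cd8a differed by 0.09. Ikzf2 had -1.29 over all members, -2.37 in Cd4 only and -0.13 in Cd8 only members, while the other Cd3e+ cells differed by 0.16. Adamts13 had -1.88 over all members, -2.47 in Cd4 only and -0.25 in Cd8 only members, while the other Cd3e+ cells differed by -0.23.

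Whether members resembled each other beyond the marker genes was described by the 20 most similar cells of each cell, by the overlap of genes detected at 2700 UMIs, over 8357 genes without the rule's genes and receptor segments. Both transplant libraries were searched together, and members made up 7.28% of the 10009 cells used. By library, they made up 1.64% of the BM only and 13.0% of the BM + Spl cells used. Members were 54.5% of the neighbours of BM + Spl members and 40.2% of those of BM only members. The own-group share in BM only and BM + Spl was 80.7% and 75.7% for Foxp3+ and 59.3% and 75.8% for Zbtb16+ T cells. It was 69.1% and 46.2% for the other T cells with none of the 3 exclusion genes. The search held 528 and 624 Foxp3+, 1590 and 1874 Zbtb16+ and 2447 and 1311 such other T cells. Foxp3+ T cells supplied 33.9% of the neighbours of BM only members and 24.8% of those of BM + Spl members, Zbtb16+ T cells 4.15% and 2.6%, and the other T cells with none of the 3 exclusion genes 19.7% and 17.0%. Of the BM only members' neighbours 27.7% came from their own library, against 85.8% for BM + Spl members. Of the 729 members used, 647 were BM + Spl cells, so members that drew on other members drew mostly on that library. Own-library shares were 44.4% and 70.3% for Foxp3+ T cells and 49.4% and 70.5% for Zbtb16+ T cells. They were 76.0% and 68.9% for the other T cells with none of the 3 exclusion genes.

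Transcripts of other cell types were scarce in members. The summed T cell markers stood at 4332 and 4659 CPM. B cell markers summed to 14 and 137 UMIs, and Cd79a was at 0 in BM only and in 5 cells of BM + Spl. Macrophage markers summed to 68 and 3 UMIs, of which 67 were Lyz2 in 1 BM only member. Plasmacytoid dendritic cell markers stood at 179 and 195 CPM, nearly all Bst2, which T cells also express, with Siglech at 0 by the rule. Endothelial markers summed to 31 and 126 UMIs, all Pecam1, with Cdh5 and Kdr at 0. Fibroblast markers were at 0, and markers of conventional dendritic cells, epithelium, erythroid and γδ T cells summed to at most 44 UMIs each.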

How the data were processed

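Per the file headers and labels, the authors aligned reads to mm10 with Cell Ranger and deposited raw counts, whole UMI counts per gene and barcode, 1 matrix per library. Cells with more than 200 and fewer than 6000 genes and under 10% mitochondrial UMIs were kept, no doublet caller was run, and labels assigned each library to its condition. Deposited counts were summed per group and scaled to CPM. Shares carry Clopper-Pearson, share ratios Katz and CPM ratios conditional binomial 95% intervals, and cells of 1 library are not replicates. Members and lists were chosen with earlier results of these data known. Named genes were the first 12 higher and 8 lower in both libraries, ranked by the interval bound nearest to 1, the first 8 each way between libraries, and the most abundant of each list (up to 4). V segments were copied from GRCm38. Scripts (Python 3.11.15, numpy 2.4.6, pandas 2.3.3, scipy 1.17.1, matplotlib 3.10.9) were tested on simulated data. Alternatives changed thresholds, depth, groups and gene filters.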

Additional observations from a re-analysis of the deposited data

How the results depend on the processing

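The log2 ratio of member shares (2.80) ranged from 0.64 to 4.54 over 12 alternatives, all above 0, with 3.16 at 2700 UMIs, 4.54 in Xist cells and 0.64 in Y-linked cells. The iNKT V-beta share moved to 41.7% in BM only members with Xist (5 of 12 cells) and to 29.3% in BM + Spl without the recurrent pairings. Genes higher in both libraries (118) numbered 72 with at least 4 markers, 34 thinned, 58 without Lag3 and Tnfsf8 in the rule, 69 against other T cells with the 3 exclusion genes at 0, 38 with members chosen on a random part of the UMIs and levels read from the rest, 33 with at least 30 expected UMIs, 28 in Cd4 only and 38 in Cd8 only cells. Genes lower in both (149) numbered 50 thinned, 69 with the UMIs so split, 54 with 30 expected UMIs, 36 in Cd4 only and 79 in Cd8 only cells. Genes higher in BM + Spl members (144) numbered 91 thinned and 45 with 30 expected UMIs. Genes lower there (46) numbered 77 with at least 2 markers, 11 thinned, 78 without the Foxp3 criterion, 28 without Lag3 and Tnfsf8, 25 with the UMIs split, 10 with 30 expected UMIs, 99 by the mean per cell, 74 in Y-linked cells, 24 in Cd4 only and 77 in Cd8 only cells. Thinned, split and stricter settings leave fewer UMIs or genes by construction, and the cause of the other shifts was not tested. Of 756 ratios of named genes under alternatives, 754 kept their direction, but 232 of these moved beyond their counting interval. Among the moved ratios were 34 of 47 in Cd8 only and 6 of 6 in Y-linked cells. The exceptions in direction were Ccl1 in Cd8 only BM + Spl cells (-1.22) and Cd8a between Cd8 only members (0.090). These genes were named for passing 2-fold in largely the same cells, so a kept direction adds little. Ratios with too few expected UMIs under an alternative were left out. Thus 34 were counted when thinned and 29 in Cd4 only cells, against 56 with at least 2 markers. The Xist, Y-linked, coreceptor and pairing alternatives were chosen after seeing the data. The neighbours were computed under 1 setting. No paired analysis was possible because each condition had 1 library.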
